A study of Mus musculus with 10 samples.

Results

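The comparison set Sox17-deficient against Sox17 control endothelial cells from mouse glioma. It used 6 of the series' 10 libraries, chosen by their titles, 3 Sox17 control and 3 Sox17-deficient, and was described across all measured genes. The other 4 libraries, 2 Sox7 control and 2 Sox7-deficient, served the estimate of the spread and 1 contrast. GL26l glioma cells had been placed in the brain of mice on a C57BL/6 background, and the endothelial cells of the tumours were purified. Deletion came from floxed Sox17 alleles and the Cdh5(BAC)-CreERT2 driver, in which the promoter of VE-cadherin, an endothelial adhesion gene, drives a recombinase that tamoxifen activates. Mice described as experimental received tamoxifen at 20 mg/kg into the peritoneum. The labels call the other group Sox17 control, and the sources used here do not state the controls' genotype further, whether they carried the driver, or whether they received tamoxifen. Effects of the deletion, of the recombinase and of tamoxifen therefore cannot be told apart. The 3 Sox17 sets each hold 1 control and 1 deficient library. No label says that the libraries came from separate animals, so the p-values here rest on a spread between libraries that could in part be technical.

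SOX17 is a transcription factor of the SoxF family, with SOX7 and SOX18. SoxF proteins bind short DNA elements and act in endothelial cells. There SOX17 is known for its role in arterial identity and in vessel growth, and is linked to the Wnt and Notch pathways. Endothelium of the brain forms the blood-brain barrier, with tight junctions, nutrient transporters and efflux pumps, and this barrier is often altered in the vessels of gliomas.

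Total counts per Sox17 library ran from 2082305 to 35068802, and the deficient library was the deeper one in sets 1 and 2 and the shallower one in set 3. Floors of 3 counts ran from 0.0847 to 1.36 CPM (counts scaled to a common library size after TMM factors) over the libraries, and cover counting error only. The ribosomal RNA precursor Rn45s took 3.93 to 16.8% of counts. Control 1 was the shallowest library. Pan-endothelial genes were abundant in every library: the 24 on the list, all tested, summed to 16900 to 28400 CPM. The values of their defining members included Pecam1 (488 to 2100 CPM) and Cdh5 (382 to 626 CPM). In bulk RNA, fewer cells of a type and less RNA per cell cannot be told apart.

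Sequences at the start sites of the 3 genes past the test, beside Sox17, whose groups did not overlap are shown first, since SOX proteins bind an ACAAT core. The core was searched as ACAAT and as its reverse complement ATTGT in RefSeq windows of GRCm38.p6, each 300 bases long, from 250 before to 50 after the start of a transcript. The capitals below mark each match, on either strand. Slc16a1 and Ddc fell in Sox17-deficient cells and Lrg1 rose.
Ddc, chr11:11890359-11890658, minus strand: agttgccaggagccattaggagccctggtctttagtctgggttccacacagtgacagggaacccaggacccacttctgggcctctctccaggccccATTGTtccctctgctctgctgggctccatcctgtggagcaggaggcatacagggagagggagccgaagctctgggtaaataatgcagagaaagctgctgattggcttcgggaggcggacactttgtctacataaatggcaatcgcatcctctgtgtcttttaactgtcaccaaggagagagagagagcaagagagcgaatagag
Slc16a1, chr3:104638414-104638713, plus strand: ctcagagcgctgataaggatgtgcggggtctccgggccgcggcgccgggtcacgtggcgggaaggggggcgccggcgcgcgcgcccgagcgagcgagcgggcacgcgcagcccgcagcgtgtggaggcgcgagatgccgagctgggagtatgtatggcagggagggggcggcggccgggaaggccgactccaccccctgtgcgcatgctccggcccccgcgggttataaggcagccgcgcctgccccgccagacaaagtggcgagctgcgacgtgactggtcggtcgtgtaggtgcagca
Lrg1, chr17:56121897-56122196, minus strand: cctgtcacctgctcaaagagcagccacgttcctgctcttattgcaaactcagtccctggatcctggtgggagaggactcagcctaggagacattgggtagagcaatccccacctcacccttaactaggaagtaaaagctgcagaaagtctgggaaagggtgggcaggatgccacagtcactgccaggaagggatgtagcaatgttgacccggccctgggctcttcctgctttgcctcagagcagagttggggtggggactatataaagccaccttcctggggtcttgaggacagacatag
The Ddc window held 1 match, and the windows of Slc16a1 and Lrg1 held none. A second Ddc window, further upstream, also held none. Over all windows in the table, 10192 of 32851 (31%) held a match. The table held windows for 10 of the 12 lower genes named below, of which 5 of 13 windows held a match (38.5%), and for 11 of the 12 higher genes, with 0 of 12 windows. It held none for Sox17. These matches describe the letters in a window and identify no binding site.

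The Sox17 transcript itself (chromosome 1, 4490931 to 4497354, minus strand, GRCm38, protein-coding) was measured at 174, 90.1 and 93.4 CPM in controls 1, 2 and 3 and at 1.93, 1.07 and 6.70 CPM in the deficient libraries of the same sets. Every deficient library lay far below every control, with the highest remaining level in set 3. Counts were 384 against 14, 1140 against 38 and 1508 against 54. The log2 fold change was −5.54 (SE 0.58; edgeR quasi-likelihood test, adjusted p = 0.000897). Which exons were floxed is not given in the sources used here, and the library kit reads transcript 3′ ends, so it is unknown whether the counted tags lie in the deleted part. Neither remaining family member passed the test. Sox7 was at 60.8, 16.6 and 35.1 CPM in controls and 101, 18.5 and 55.7 CPM in deficient libraries (log2 fold change 0.52, SE 0.60). Sox18 was at 73.1, 175 and 214 against 374, 209 and 72.1 CPM (0.32, SE 0.76), higher in sets 1 and 2 and lower in set 3, and its fitted value was −0.67 without set 1.

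Beyond Sox17, the monocarboxylate transporter gene Slc16a1 and the aromatic amino acid decarboxylase gene Ddc fell in Sox17-deficient cells by 2.05 and 2.07 on the log2 scale. Lrg1 rose by 2.40, and the leukocyte genes Cd72 and Ms4a6c, at low counts in 2 of 3 controls, fell to or near 0. These were 6 of 13040 genes tested (0.046%) with an edgeR adjusted p under 0.05: 5 lower (0.0383%) and 1 higher (0.00767%). At an unadjusted p under 0.05 there were 511 genes (3.92%), of which 262 were higher (2.01%) and 249 lower (1.91%). With no difference in any gene, a share of about 0.05 would lie under that threshold. Differences within sets were weakly related over genes, with Pearson correlations of 0.0502, 0.0184 and 0.0517 between the differences of sets 1 and 2, 1 and 3, and 2 and 3. Genes in these correlations are not independent replicates.

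Slc16a1 (chromosome 3, 104638668 to 104658462, plus strand) encodes MCT1, which carries lactate, pyruvate and ketone bodies across the membrane and is enriched in brain endothelium. Its level was 501, 375 and 324 CPM in controls and 117, 61.0 and 122 CPM in deficient libraries, so that the groups did not overlap. The log2 fold change was −2.05 (SE 0.34; edgeR adjusted p = 0.0157). Ddc (chromosome 11, 11814101 to 11898144, minus strand) encodes the enzyme that makes dopamine and serotonin from their precursors and is part of an enzymatic barrier in brain microvessels. It was at 178, 268 and 91.0 CPM in controls and 28.1, 76.9 and 26.7 CPM in deficient libraries, again with no overlap (−2.07, SE 0.35; edgeR adjusted p = 0.0157).

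Lrg1 (chromosome 17, 56119678 to 56122001, minus strand) encodes leucine-rich alpha-2-glycoprotein 1, a secreted protein that modulates endothelial TGF-beta signalling, and it is a marker of venous endothelium. It rose from 54.0, 116 and 344 CPM in controls to 564, 788 and 702 CPM in deficient libraries. All deficient libraries were above all controls, and the difference was smaller in set 3, where the control was highest. The log2 fold change was 2.40 (SE 0.41; edgeR adjusted p = 0.0233), and the differences within sets on the log2(CPM + 1) scale were 3.36, 2.75 and 1.03.

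Cd72 and Ms4a6c are genes of B cells and myeloid cells and were at low counts. Cd72 (chromosome 4, 43446462 to 43454628, minus strand) had 95 counts in control 2 and 23 in control 3, and no count in control 1 or in any deficient library. Pooled over the libraries of a group, controls were at 3.81 CPM. The pooled deficient libraries were at least 64.4-fold lower, against a floor of 3 counts over the group (edgeR adjusted p = 0.00767). This bound rests mostly on set 2, with 7.51 CPM in control 2 and a floor of 0.0847 CPM in its deficient library. In set 3 the control was at 1.42 CPM against a floor of 0.372 CPM, and set 1 gives no bound. Ms4a6c (chromosome 19, 11469366 to 11482192, plus strand) was at 0, 18.7 and 4.64 CPM in controls and 0.138, 0.395 and 0.248 CPM in deficient libraries (log2 fold change −4.68, SE 0.81; edgeR adjusted p = 0.0230). Set 1 therefore carried no loss for either gene. Macrophage and microglia markers, of which 20 of 21 were tested, summed to 63.1, 855 and 257 CPM in controls and 112, 420 and 258 CPM in deficient libraries. Of the 20, 8 had positive and 12 negative fitted values. In both libraries of set 1, Cd68, C1qb, Fcer1g, Adgre1 and Lyz2 had no count. Other members had counts in set 1, where the list summed to 63.1 CPM in the control and 112 CPM in the deficient library. Ms4a7, the list member of smallest p, did have counts in control 1. It had 14, 35 and 18 counts in controls 1, 2 and 3 and 0 in every deficient library (edgeR adjusted p = 0.531). The part of these cells in the values of Cd72 and Ms4a6c was not tested.

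The number of genes past the threshold depended on the fit. The 6 Sox17 libraries fitted alone left 1 gene, Sox17, as did a stricter filter on low counts. Leaving out the replicate block left 0 genes at an adjusted p under 0.05 (459 at an unadjusted p under 0.05), leaving out set 1 left 0, leaving out set 2 left 2, one of them Sox17, and leaving out set 3 left Sox17 and Lrg1. DESeq2 with the block called 88, of which 72 were lower, and the fit with no filter 54. The fold changes kept their direction over the 13 fits: Slc16a1 lay between −2.36 and −1.76, Ddc between −2.23 and −1.80 and Lrg1 between 1.88 and 3.07.

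**Figure D1:**
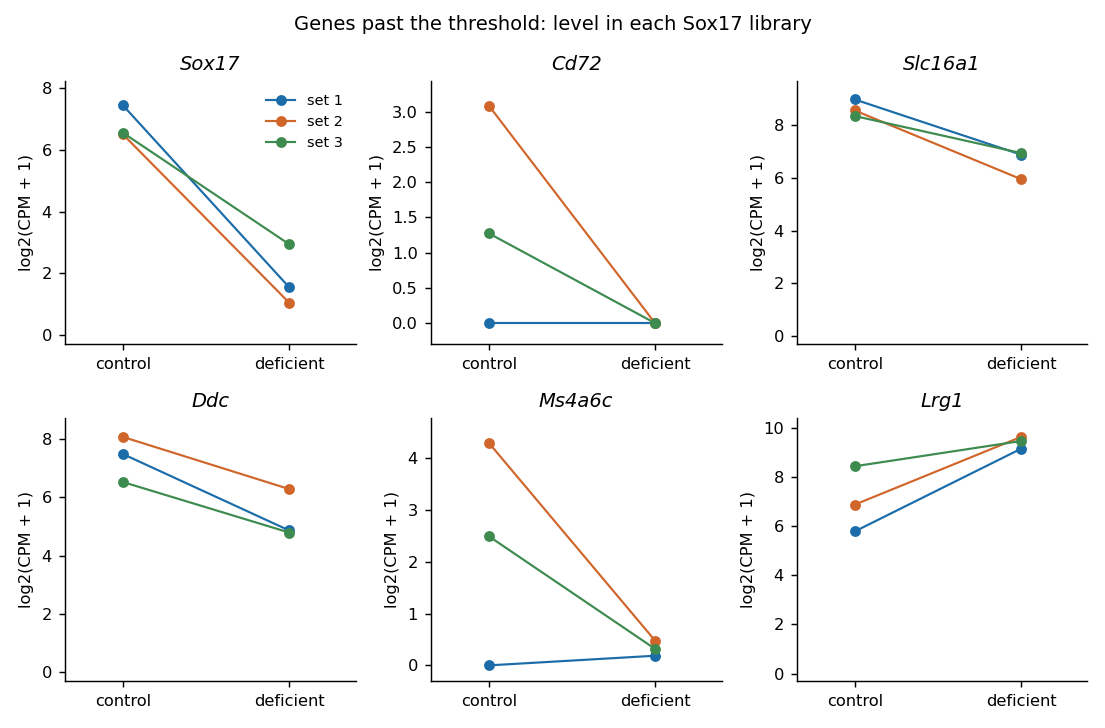
Level of the 6 genes with an adjusted p under 0.05 in each Sox17 library, as log2(CPM + 1) on the y axis, with a line joining the control and deficient library of a set. Sox17, Slc16a1 and Ddc are lower and Lrg1 is higher in the deficient library of every set, while Cd72 and Ms4a6c are at or near 0 in both libraries of set 1.

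In all 3 sets alike, 1713 genes were higher in the deficient library (13.1% of genes tested) and 1499 lower (11.5%). Signs unrelated between sets would give shares of about this size, so these counts do not show a shared change. At least 2-fold in each set, these were 91 (0.698%) and 148 (1.13%), and 25 and 43 with a pseudocount of 5 CPM. The 12 of smallest p in each direction, among genes with a mean of at least 10 CPM, are described next. Of the 24, Sox17, Slc16a1, Ddc and Lrg1 passed the test, and the others did not, with edgeR adjusted p-values of 0.196 to 0.568. Their values are a description.

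The lower genes included a guidance factor, metabolic enzymes and membrane proteins. Sema3c, a secreted guidance factor, was at 172, 145 and 60.4 CPM in controls and 46.4, 37.9 and 20.6 CPM in deficient libraries, with no overlap (log2 fold change −1.79, SE 0.39; edgeR adjusted p = 0.196). Glul, which encodes glutamine synthetase, was at 1130, 891 and 757 against 357, 334 and 337 CPM (−1.42, SE 0.31; 0.226). Its deficient libraries lay within a narrow range below all controls. Sdpr, the gene of a caveolar coat protein also called Cavin2, was at 817, 632 and 331 against 230, 275 and 121 CPM (−1.50, SE 0.35; 0.268), also with no overlap. Efr3b, a membrane anchor of a lipid kinase, was at 108, 228 and 140 against 29.9, 29.7 and 72.8 CPM (−1.91, SE 0.47), and Gcnt2, a glycosyltransferase of the I blood-group branch, at 163, 221 and 176 against 94.9, 64.1 and 53.3 CPM (−1.43, SE 0.36). Nxpe4 was at 46.3, 80.0 and 54.8 against 13.6, 12 and 13.4 CPM (−2.18, SE 0.52).

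Rgs5, a regulator of G-protein signalling and a defining pericyte gene, was at 640, 208 and 115 CPM in controls and 92.6, 58.6 and 48.5 CPM in deficient libraries (log2 fold change −1.95, SE 0.42; edgeR adjusted p = 0.255). The groups did not overlap. The adult beta-globin genes Hbb-bs (−1.91, SE 0.47) and Hbb-b1 (−1.96, SE 0.49) were also among the 12. Hbb-bs was at 341, 84.1 and 39.2 against 61.2, 17.5 and 20.5 CPM, so that control 1 stood far above the rest. Globin genes are near-identical copies, and their counts may share reads.

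Among the higher genes were secreted and cell-surface modulators of vessels. Igfbp4, which binds insulin-like growth factors, was at 354, 436 and 1370 CPM in controls and 1440, 1420 and 2010 CPM in deficient libraries, all above the highest control (log2 fold change 1.43, SE 0.33; edgeR adjusted p = 0.266). Tnfaip2, a gene induced by tumour necrosis factor, was at 30.4, 39.2 and 87.6 against 111, 163 and 190 CPM (1.68, SE 0.38; 0.266), with no overlap. Ackr1, the atypical chemokine receptor of venules, was at 206, 145 and 367 against 1040, 345 and 473 CPM (1.31, SE 0.36; 0.531), with the largest difference in set 1, and the value was 0.80 without that set. The receptor subunit gene Crlf2 had a log2 fold change of 1.30 (SE 0.36).

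Other higher genes were of the cytoskeleton, the cell cycle and protein folding. Pdlim1, a LIM-domain protein of actin fibres, was at 142, 102 and 225 against 386, 356 and 398 CPM (log2 fold change 1.35, SE 0.33; edgeR adjusted p = 0.390), with no overlap. The calcium-binding S100a6 was at 91.7, 158 and 156 against 644, 275 and 271 CPM (1.44, SE 0.39; 0.78 without set 1), also with no overlap. Pdcd4, an inhibitor of translation, was at 6.35, 7.98 and 34.2 against 78.1, 35.5 and 70.0 CPM (2.20, SE 0.56). The mitotic kinase gene Plk1 was at 8.62, 44.7 and 130 against 75.7, 156 and 193 CPM (1.77, SE 0.46; 1.17 without set 1), and its groups overlapped. Cdk1, the kinase that drives entry into mitosis, was at 60.4, 45.7 and 99.3 against 198, 112 and 185 CPM (1.30, SE 0.37), with no overlap. The collagen chaperone gene Fkbp10 (1.42, SE 0.36) and Esyt1, a tether of membrane contact sites (1.22, SE 0.33), completed the 12.

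**Figure D2:**
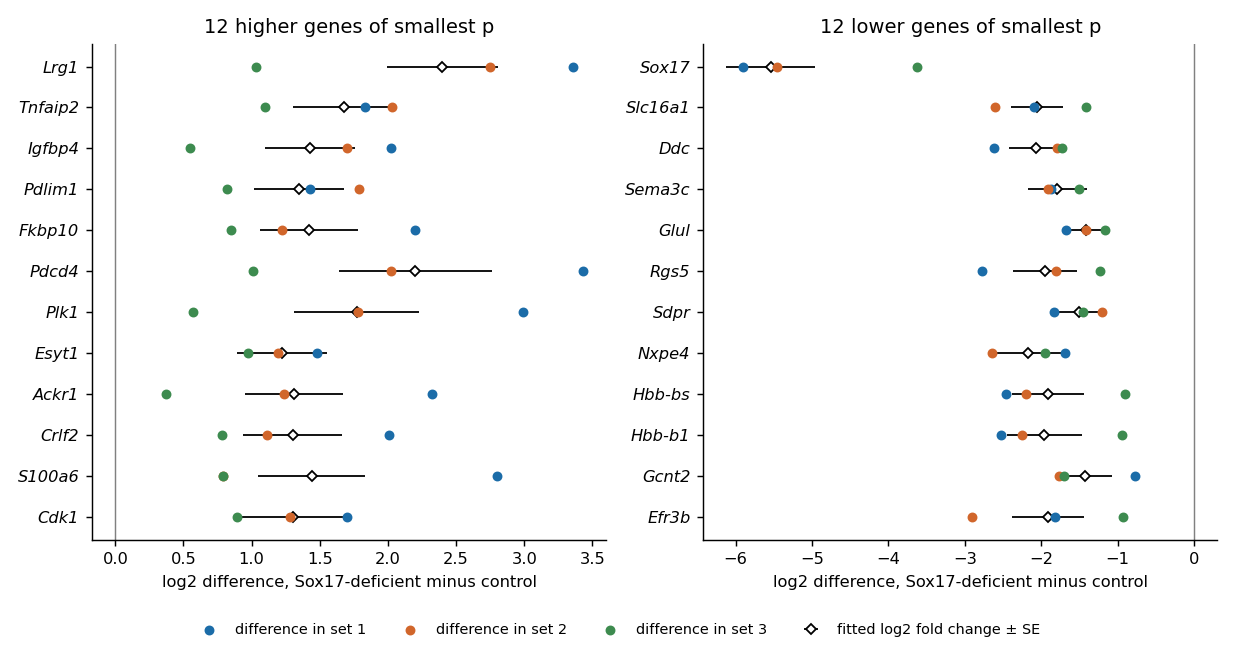
Log2 differences between the Sox17-deficient and control library in each set (coloured points, log2(CPM + 1) scale) and the fitted log2 fold change with its SE (diamond and line), for the 12 higher and 12 lower genes of smallest p among those that go the same way in all 3 sets. In the left panel the set 3 point lies nearest to 0 for all genes but S100a6, where sets 2 and 3 coincide.

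Blood-brain barrier genes mostly had lower fitted levels in Sox17-deficient cells. This list, like the others here, was chosen with earlier results of these data known. Its shares beside those of all genes are therefore a description and no test. Of 26 listed genes, all tested, 24 had a negative fitted log2 fold change, where 50.1% of all genes did, and the median was −0.62 against −0.001 over all genes (quartiles −0.68 and 0.58). Slc16a1 was the 1 member that passed the test. In all 3 sets 18 members were lower, against 11.5% of all genes, and 8 had groups that did not overlap, against 4.23%. The medians of the differences in sets 1, 2 and 3 were −0.57, −0.70 and −0.32. The summed level of the list was 18500, 19400 and 14600 CPM in controls and 12800, 13400 and 10400 CPM in deficient libraries. All deficient libraries were below all controls.

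The members differed in size of change. Spock2, a proteoglycan of the extracellular matrix, was at 369, 212 and 51.8 against 59.6, 75.2 and 33.2 CPM (log2 fold change −1.59, SE 0.42; edgeR adjusted p = 0.527). Slc16a4, a second monocarboxylate transporter gene, was at 40.4, 27.7 and 14.7 against 3.58, 5.14 and 0 CPM (−4.14, SE 1.52), with a wide error at these levels. Further members were chosen after their values were seen, for their known place in the barrier. Mfsd2a, the transporter of lysophosphatidylcholine that limits transcytosis, was at 275, 420 and 153 against 150, 153 and 124 CPM (−0.88, SE 0.36), and Slc7a5, of the large neutral amino acid transporter, at 3770, 2240 and 3440 against 1250, 2180 and 1870 CPM (−0.84, SE 0.33; −0.47 without set 1). In both, every deficient library lay below every control, though the closest libraries of Mfsd2a were equal to the digits printed. The fitted value of the efflux pump gene Abcb1a was −0.64 (SE 0.32; −0.98 without set 1). The glucose transporter gene Slc2a1 (0.01, SE 0.29, at 987 to 1520 CPM in controls) and the tight junction gene Cldn5 (0.28, SE 0.32; 0.02 to 0.72 with 1 set left out) did not pass the test, and the sign of Slc2a1 was negative under size factors by the RLE method.

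**Figure D3:**
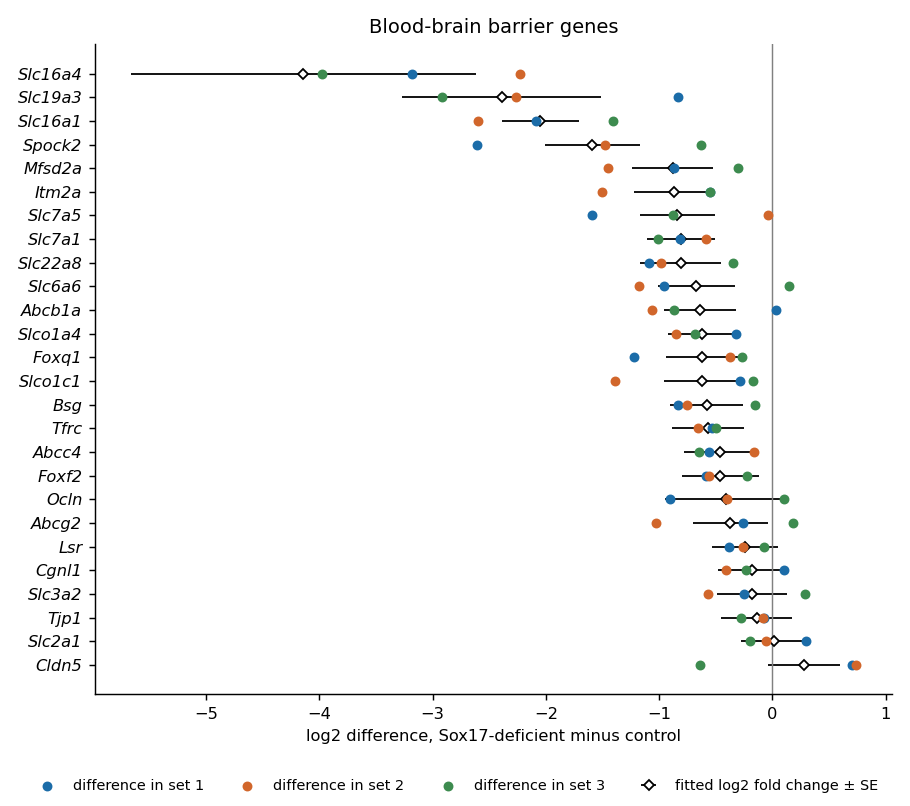
Blood-brain barrier genes, ordered by fitted log2 fold change (diamond with SE), with the log2 difference within each set as coloured points. Of the 26 genes 24 lie left of 0, and Cldn5 and Slc2a1 lie at or right of it.

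Pericyte markers were lower beside this group in sets 1 and 2. All 10 listed markers were tested, 8 had negative values, and their summed level was 871, 746 and 293 CPM in controls and 221, 254 and 254 CPM in deficient libraries. Pdgfrb, the growth factor receptor that defines pericytes, was at 58.5, 171 and 64.3 against 8.25, 64.6 and 75.9 CPM (log2 fold change −1.31, SE 0.52; −0.60 without set 1 and −2.09 without set 3). In set 3 the pericyte median was 0.03, and the barrier median there was −0.32. The fitted pericyte median was −0.69, and −0.35 without set 2. Smooth muscle markers (8 tested) summed to 605, 262 and 121 against 148, 191 and 200 CPM. Erythroid markers (8 of 10 tested, 7 negative) summed to 3370, 471 and 192 against 507, 90.3 and 91.9 CPM, lower in the deficient library of each set. The part of these cells in the barrier and pericyte values was not tested.

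Arterial genes mostly had negative and venous genes positive values, with 0 arterial and 1 venous gene past the test. Of 20 arterial genes, 14 were negative, with a median of −0.68 and medians by set of −0.38, −0.71 and −0.14. Cxcl12, the chemokine made by arterial endothelium, was at 1510, 4120 and 847 against 541, 741 and 457 CPM, with no overlap (log2 fold change −1.61, SE 0.47; edgeR adjusted p = 0.838). Alpl, an alkaline phosphatase of arterial and capillary endothelium, was at 97.6, 178 and 48.6 against 26.3, 21.8 and 39.6 CPM (−1.75, SE 0.56; 0.838), and the value was −1.10 without set 2. The netrin receptor gene Unc5b was at 225, 390 and 161 against 56.4, 121 and 181 CPM (−1.19, SE 0.45; −0.77 without set 1), lower in sets 1 and 2 and higher in set 3. Of 15 venous genes, 12 were positive, with a median of 0.43 and medians by set of 1.47, 0.45 and −0.02, and the fitted median was 0.19 without set 1. Lrg1 was the member past the test, and Ackr1 had the next smallest p.

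Wnt/beta-catenin signalling maintains the barrier of brain endothelium, and Sox17 itself is on that list. Of 17 tested of 18 listed genes, 12 were negative (median −0.40, and −0.65 without set 1). In all 3 sets 8 were lower, against 11.5% of all genes, and Sox17 alone passed the test. Sox17, the deleted gene, is counted in each of these values, and its own part in them follows from the design. Tnfrsf19, also called Troy, was at 254, 218 and 65.5 against 102, 61.8 and 41.2 CPM (log2 fold change −1.27, SE 0.37; edgeR adjusted p = 0.625), and its groups overlapped. In the Notch list, 12 of 18 genes were negative (median −0.18, and −0.36 without set 3), and 0 were lower in all 3 sets. Hey1, a transcriptional target of Notch, was at 110, 37.7 and 18.8 against 23.4, 4.83 and 21.5 CPM (−1.72, SE 0.70; −1.03 without set 2), and Mfng, a glycosyltransferase that modifies Notch, had a value of 0.77 (SE 0.37).

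Growth-factor pathways of vessels showed values in both directions. Of 15 VEGF signalling genes 8 were negative (median −0.03), and Flt1, the decoy receptor of VEGF, was at 3860, 3350 and 2610 against 1190, 2490 and 1920 CPM (log2 fold change −0.85, SE 0.34). All deficient libraries were below all controls for Flt1, at an edgeR adjusted p of 1, and the log2 fold change was −0.45 without set 1. Of the 6 angiopoietin and Tie genes tested, 4 were negative and 2 positive (median −0.66). The ligand gene Angpt2 was at 281, 276 and 325 against 428, 598 and 530 CPM (0.81, SE 0.32), with no overlap. Angptl2, at low counts, was at 22.7, 13 and 2.29 against 0, 0.0282 and 0.868 CPM (−6.65, SE 2.54), also with no overlap. Ptprb, the phosphatase that acts on the TIE2 receptor, was at 2740, 847 and 994 against 872, 600 and 692 CPM (−0.89, SE 0.32; −0.52 without set 1). Among pan-endothelial genes, 13 were positive and 11 negative. Egfl7, a secreted endothelial factor, was at 1180, 2710 and 4580 against 2010, 6360 and 6780 CPM (0.86, SE 0.29; edgeR adjusted p = 0.861).

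Of 16 secreted modulators of vessels 13 were positive (median 0.48), 9 in all 3 sets, against 13.1% of all genes, and Lrg1 passed the test. Igfbp3 was at 833, 1490 and 2010 against 1790, 3090 and 2740 CPM (log2 fold change 0.87, SE 0.29; edgeR adjusted p = 0.855), and Ctgf, a matrix protein induced by YAP and TGF-beta signalling, at 614, 1410 and 1700 against 1360, 5110 and 1780 CPM (1.03, SE 0.34; 0.838), with 0.60 for Ctgf without set 2. Both were higher in the deficient library of each set, and their groups overlapped. Basement membrane genes were positive in 11 of 16 (median 0.20, and 0.36 without set 3), among them Col18a1, the source of endostatin (1.09, SE 0.39), the collagen IV chain gene Col4a2 (0.77, SE 0.31) and the laminin chain gene Lamc1 (0.83, SE 0.34). Without set 1 these values were 0.72, 0.50 and 0.50. Of 22 tip cell and tumour endothelium genes 13 were positive (median 0.30, and 0.08 without set 2). Of 14 shear-response genes 7 were, while Klf2, a flow-induced transcription factor gene, was at 775, 704 and 391 against 473, 227 and 252 CPM (−0.99, SE 0.33; edgeR adjusted p = 0.838).

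Proliferation genes mostly had positive values, and 0 of them passed the test. Of 34 tested, 29 were positive (49.9% of all genes were), the median was 1.00, and 15 were higher in all 3 sets. Top2a, the topoisomerase of dividing cells, was at 20.9, 63.8 and 150 against 146, 99.9 and 263 CPM (log2 fold change 1.37, SE 0.49; 0.72 without set 1). The medians by set were 1.48, 0.83 and 0.04, and without set 1 the fitted median was 0.45. Ribosomal protein genes were positive in 70 of 79 (median 0.42; 0.67, 0.49 and −0.02 by set; 0.27 without set 1), with 18 whose groups did not overlap, against 4.13% of all genes. Rps3 was at 193, 547 and 866 against 1410, 959 and 989 CPM (1.25, SE 0.45; 0.49 without set 1). These genes have many processed pseudogenes, and their counts are uncertain. Hypoxia and glycolysis genes were positive in 22 of 26 (median 0.40; 0.60, 0.34 and 0.10 by set; 0.24 without set 3). For these 3 lists, and for the venous and secreted modulator lists (the latter at 1.02, 0.81 and 0.13 by set), the sets with the larger medians were sets 1 and 2, where the deficient library was also the deeper one. Barrier, arterial and pericyte lists had their more negative medians in sets 1 and 2 too. By set, the barrier medians were −0.57, −0.70 and −0.32 and the arterial ones −0.38, −0.71 and −0.14. The pericyte ones were −0.51, −1.49 and 0.03. The Wnt/beta-catenin list differed, at −0.04, −0.66 and −0.58. The part of depth in all these values was not tested.

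**Figure D4:**
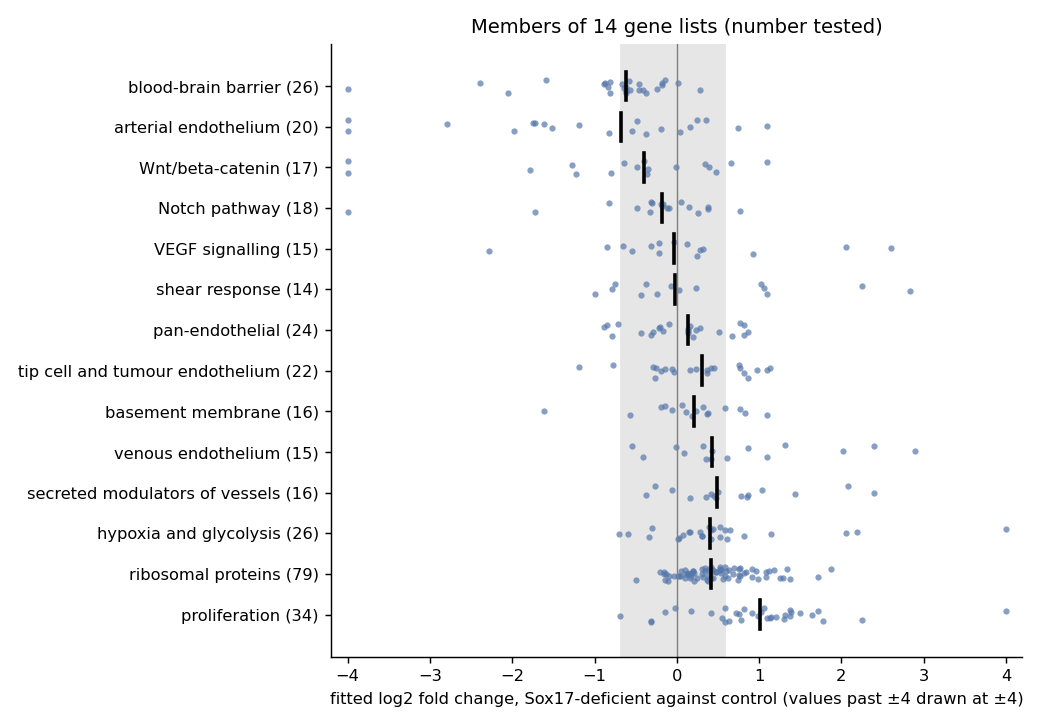
Fitted log2 fold change (x axis) of each tested member of 14 gene lists (points), with the median of each list as a black bar and the quartile range of all 13040 genes in grey (−0.68 to 0.58). The medians of the blood-brain barrier and arterial lists lie near the lower edge of the grey band and that of the proliferation list lies right of it.

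For 10 further lists of vessel, stress and metabolic genes the fitted medians lay within the quartiles of all genes. Leaving out 1 set turned the sign of some. Those quartiles are of single genes, so a list median within them does not show an unchanged list. Medians given above, such as −0.62 for the barrier list, lay within them too. Medians were −0.01 for 17 leukocyte adhesion genes, 0.15 for 19 BMP and TGF-beta genes, 0.00 for 12 genes of endothelial-to-mesenchymal transition, −0.12 for 20 immediate early genes, 0.08 for 16 antigen presentation genes and 0.07 for 16 genes of the unfolded protein response. They were −0.23 for 22 interferon genes, 0.35 for 18 cholesterol synthesis genes, 0.35 for 14 p53 response genes and 0.34 for the 8 tested of 13 retinoic acid genes. Without set 1 the p53, cholesterol and retinoic acid medians were −0.11, −0.09 and −0.18. Without set 3 the p53 and cholesterol medians were 1.19 and 0.72, outside the quartiles, and without set 2 the interferon median was 0.07. The medians of leukocyte adhesion were −0.11 to 0.27 with 1 set left out, those of endothelial-to-mesenchymal transition −0.39 to 0.44, of immediate early genes −0.43 to 0.18, of antigen presentation −0.16 to 0.16 and of the unfolded protein response −0.01 to 0.26. Those of BMP and TGF-beta were 0.15 to 0.24. None of these 10 lists had a member past the test. Of the 9 genes of fenestral and vesicular transport, 4 were positive and 5 negative, with Sdpr the one of smallest p.

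**Figure D5:**
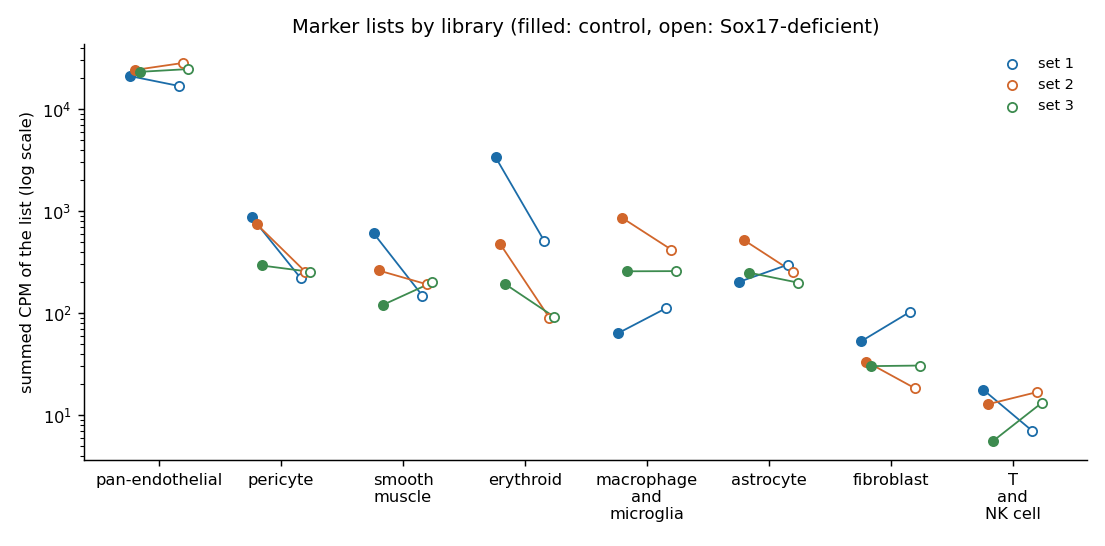
Summed CPM (log y axis) of the tested members of 8 marker lists in each Sox17 library, filled for control and open for deficient, with a line per set. Pan-endothelial sums, 16900 to 28400 CPM, are above those of every other list shown, and the erythroid sum is lower in the deficient library of each set.

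Set against the Sox7 arm, which has controls of its own, the Sox17 difference was tested gene by gene in the same fit. The contrast was past the threshold for 3 of 13040 genes (0.023%), Ms4a6c, Cd72 and Sox17, the last deleted in the Sox17 arm only. The count was 73 without Sox7 set 1, with 1 gene shared, 40 with DESeq2 and 24 with no filter. With no replicate block, with limma-voom or with a stricter filter it was 0. For Slc16a1 the Sox17 log2 fold change was −2.05 and the Sox7 one −0.97, and the difference of −1.07 (SE 0.52) did not pass. For Ddc the values were −2.07 and −0.49, with a difference of −1.58 (SE 0.53). Lrg1 had 2.40 in the Sox17 arm and −0.56 in the Sox7 arm, and the difference of 2.96 (SE 0.61) did not pass either. Sox7 itself, at −4.22 in the Sox7 arm, had a contrast of 4.74 (SE 1.08, edgeR adjusted p = 0.391). The test thus missed a gene deleted in the Sox7 arm only. A contrast that did not pass therefore does not show that the arms were alike. The barrier list had a median of −0.40 in the Sox7 arm, and 0 of its members had a contrast at an unadjusted p under 0.05, against 2.81% of all genes. At that share a list of 26 genes could well have 0, so this count does not set the list apart from all genes. Macrophage markers summed to 214 to 22000 CPM over the Sox7 libraries, with the highest value in Sox7-deficient 1. Without Sox7 set 1, the contrasts of Ms4a6c and Cd72 had edgeR adjusted p-values of 0.76 and 1, and that of Sox17 remained past the threshold at 0.00893.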

How the data were processed

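The deposited files hold whole-number counts per gene symbol, 1 file per library, not normalised by the authors. Libraries were made with the Lexogen QuantSeq kit from 500 ng of RNA extracted with Trizol, per the labels' protocols. Bowtie2, edgeR and mm10 are named per the submitters' processing notes, and the annotation and strand setting are not given in the sources used here. Lines of a repeated symbol were summed, and 1183 symbols starting with Mir (0.0672 to 0.13% of counts) were left out. Of 23238 symbols, filterByExpr removed 10198.

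Counts of all 10 libraries were fitted in R 4.3.3 with edgeR 4.0.16 (TMM, robust quasi-likelihood F-test), with the set as a block and a term for each deletion, which left 3 residual degrees of freedom. The Benjamini-Hochberg adjustment was over 13040 genes, with a threshold of 0.05. The block follows the independent sets of the series text and run labels that sets 2 and 3 share within a set. Deviations from group means correlated at 0.12, 0.0911 and 0.0896 within sets 1, 2 and 3, and all 6 libraries correlated best with their own number. Deviations within a group of 3 sum to 0, so these 6 comparisons are not independent. Correlations this small give little ground for the block. Differences within sets use log2(CPM + 1). Named genes were those past the threshold, the 12 of smallest p each way with 1 sign in all 3 sets and a mean of at least 10 CPM, up to 3 of smallest p per list, the SoxF genes and the leading genes of the contrast. The genes, lists and comparison were chosen with earlier results of these data known. Lists are described by counts and medians with no test. Alternatives covered the block, the libraries fitted, DESeq2 1.42.0, limma 3.58.1, RLE factors, filters, Rn45s, the pseudocount and each set left out. The fit was also run on simulated counts with less spread than these data and no differences between sets. That run does not bear on how reliable the calls here are. Positions are from GENCODE vM21 (GRCm38, the assembly of mm10). Markers of B cells and mitochondrially encoded genes had 0 tested members.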

Additional observations from a re-analysis of the deposited data

Results flagged for a closer look

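Of the genes tested, 3 had a Sox17 difference that differed from the Sox7 difference (edgeR quasi-likelihood test of the contrast, adjusted p under 0.05). Ms4a6c had a contrast of −9.69 on the log2 scale (adjusted p = 0.000245), with −4.68 in the Sox17 arm and 5.01 in the Sox7 arm. Cd72 had a contrast of −13.49 (adjusted p = 0.00171), with −8.88 and 4.60. Fitted values of Cd72 depend on the prior count, since all its Sox17-deficient libraries were at 0. Sox17 had a contrast of −5.11 (adjusted p = 0.047), with −5.54 and −0.43. It was deleted in the Sox17 arm only, so a contrast for it follows from the design. Leaving out Sox7 set 1 gave −9.97, −8.17 and −5.65, with adjusted p-values of 0.76, 1 and 0.00893, and leaving out Sox17 set 1 gave Sox17 a contrast of −4.64 (0.809). Over all alternatives the edgeR, DESeq2 and limma adjusted p-values ran from 2.15e-16 to 1 for Ms4a6c, from 5.61e-09 to 1 for Cd72 and from 1.46e-11 to 1 for Sox17. Macrophage markers were highest in the Sox7-deficient library of set 1, and their part in the contrasts of Ms4a6c and Cd72 was not tested.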

How the results depend on the processing

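Of 6 genes past the threshold, 0 were left with no replicate block, 1 with the 6 Sox17 libraries alone, 0 with limma-voom and 1 with a stricter filter, while DESeq2 with the block called 88 and the fit with no filter 54. Leaving out 1 set gave 0 to 2. RLE factors and leaving out Rn45s each gave 6, the same genes, and leaving out Sox7 set 1 gave 5, of which 4 were shared. The Sox17 log2 fold change lay between −6.43 and −5.06 over 13 settings and missed the threshold with no replicate block (−5.24, adjusted p = 0.226), with limma-voom (−5.57, 0.179) and without set 1 (−5.09, 0.165). With 1 set left out it was −6.43 to −5.06. The contrast with Sox7, 3 genes, gave 0 with no replicate block, with limma-voom and with the stricter filter, 40 with DESeq2, 24 with no filter and 73 without Sox7 set 1, and 1 to 4 with 1 Sox17 set left out. Genes at least 2-fold apart in all 3 sets numbered 239 (91 higher, 148 lower), and 68 with a pseudocount of 5 CPM. Slc2a1 turned to −0.01 with DESeq2, limma-voom and RLE factors and was −0.14 to 0.12 with 1 set left out. Sox18 was −0.67 to 1.29 with 1 set left out. The causes were not tested. Of the genes' other values, 648 kept direction and side of the threshold, 42 newly passed and 35 no longer passed. Of the lists' medians, 42 moved by at least the standard deviation of the list's own medians by set, and 430 moved less. The 430 include changes of sign, such as the p53 list at 0.35 in the main fit and −0.11 without set 1. The barrier list had 23 to 25 negative members of 26 in all fits.

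Counts of low genes limit precision: the floor in control 1 was 1.36 CPM.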
